A study of Mus musculus with 9 samples.

Results

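The regions bound by Argonaute (AGO) in normal mouse liver were described from 5 CLIP-seq libraries, which are all the control libraries among the 9 of the series. The deposited table lists 92645 bound regions, and 84795 of them held at least 1 read in a control library. The controls were floxed littermates of mice lacking miR-122, labelled WT for miR-122, each library from a separate mouse of 6 weeks of age. Replicates 1 to 3 were female and replicates 4 and 5 were male. Nothing in the labels names the Cre or the strain, and the livers were flash frozen, pulverised and UV crosslinked whole, so every cell type of the organ could contribute. The rule used the control columns and no measured value. The 4 libraries of mice lacking miR-122 enter no comparison.

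AGO proteins carry microRNAs, which guide them to messenger RNAs mainly by pairing of the microRNA's seed, its bases 2 to 8, with a complementary site. Binding usually lowers the stability or the translation of the target. UV crosslinking fixes AGO to the RNA it touches, and the fragments left after RNase digestion give a footprint that holds the microRNA's target and, at times, the microRNA precursor itself. In hepatocytes miR-122 is known as the most abundant microRNA.

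For 8 of the 10 families whose seed matches held most of the reads, 1 member is shown, because the seed decides which regions a family is credited with. The sequences of miR-122 and of the class miR-122-5p-B, the first and the fifth by reads, are not printed here. The mature sequences are those of RefSeq (GRCm38.p6), written 5′ to 3′, with the seed in capitals.
let-7a-5p: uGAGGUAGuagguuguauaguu
miR-15a-5p: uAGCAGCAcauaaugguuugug
miR-103-3p: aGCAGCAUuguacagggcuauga
miR-30a-5p: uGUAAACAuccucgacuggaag
miR-29a-3p: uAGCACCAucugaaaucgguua
miR-22-3p: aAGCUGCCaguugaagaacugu
miR-27a-3p: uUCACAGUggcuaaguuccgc
miR-26a-5p: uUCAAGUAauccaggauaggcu
The seeds of miR-15a and miR-103 are the same run of bases shifted by 1 position. A target holding the letters UGCUGCU pairs with the seed of miR-15a, and 1 holding AUGCUGC pairs with that of miR-103, so 1 stretch can be listed for both.

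The libraries held 709498, 445912 and 1137064 reads in females and 1170130 and 744936 in males. Levels are given as CPM, a region's reads scaled to a fixed total of reads per library. A count of 0 allows up to 2.56 to 6.73 CPM in a single library (3 reads of its total), and such limits cover counting error only. Of the regions with a control read, 37274 had one in all 5 libraries, and 51592 had 10 or more reads in the 5 together. The level of a region reflects the abundance of the transcript as well as its binding, since it is not divided by RNA-seq, which is not used here. In whole tissue, fewer cells of a type and less RNA per cell cannot be told apart. The 5 hepatocyte markers checked all had reads, summing to 20208 ± 2622 CPM (SD, n = 5). Markers of the other liver cells were far lower, at 297 CPM for Kupffer cells (5 of 6 genes with a read), 409 for sinusoidal endothelium, 587 for stellate cells, 19.4 for cholangiocytes (3 of 5), 16.4 for lymphocytes (1 of 4) and 4.72 for neurons (3 of 5). Red cell genes summed to 10120 ± 1632 CPM, mostly the 2 near-identical alpha globin genes, so blood was part of the sample.

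Most AGO reads of control liver lay in exons of messenger RNA, and more lay in coding sequence than in 3′ UTRs. The 3 kinds of mRNA exon together held 73.8% ± 2.18 of the reads (SD, n = 5). Coding regions held 38.8%, 39.8%, 39.5%, 37.5% and 35.8% of the reads of controls 1 to 5. The 3′ UTRs held 28.9%, 26.1%, 29.0%, 30.3% and 26.7%. The ranges do not overlap, and the coding share was higher in 5 of 5 libraries, by 10.1 ± 2.37 percentage points (exact two-sided sign-flip test, p = 0.0625, the smallest that 5 libraries can give). With 33227 coding and 28283 3′ UTR regions, the median region was at 3.21 and 3.05 CPM. The 5′ UTRs held 7.32% ± 0.469 of the reads in 3841 regions.

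Outside messenger RNA, small numbers of regions held much of the signal. The class the table names RNA, which holds part of the ribosomal RNA locus of chromosome 17 (another part is filed as lincRNA), had 494 regions with a read and 8.45% ± 1.32 of the reads. Mitochondrial RNA had 13 regions and 2.41% ± 0.652. Introns held 3.55% ± 0.170 in 6926 regions, and long terminal repeats (LTR), the ends of endogenous retroviruses and related elements, held 1.73% ± 0.489 in 1883. The LTR share was 1.48%, 1.18% and 1.49% in females and 2.25% and 2.24% in males, a split described further on. Control 5 had the highest shares of the RNA and mitochondrial classes and the lowest coding share, and control 2 the lowest 3′ UTR share.

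**Figure D1:**
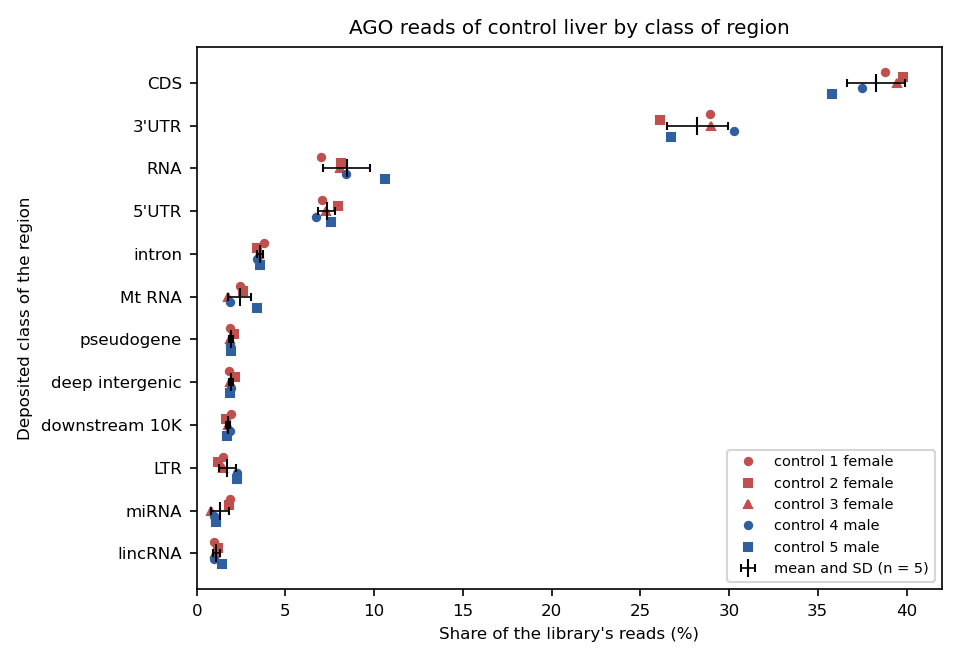
Share of each library's reads (x axis, percent) in the 12 largest deposited classes of region (y axis); red symbols are the 3 females, blue the 2 males, and black bars the mean with SD (n = 5). Coding sequence (CDS) lies above 3′ UTR in each library, and the LTR shares of the 2 males lie above those of the 3 females.

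A seed match was listed for most of the bound sequence. Each row of the table pairs a region with a match to 1 of 31 families, and each match is graded by how far it pairs. A 6mer pairs with bases 2 to 7, a 7mer-m8 with bases 2 to 8, a 7mer-A1 adds an A opposite base 1 to the 6mer, and an 8mer has both. Regions with a 7mer or 8mer of at least 1 family held 70.02% ± 0.513 of the reads (SD, n = 5), between 69.6% and 70.7% in every library. Regions with no match of any listed family held 9.54% ± 0.436. The share of regions without a match was 14.4% over all regions with a read and 8.72% over the 1261 regions at 100 CPM or more, where 73.6% had a 7mer or 8mer. Over all regions with a read, 48.6% had a 7mer or 8mer of 1 family and 11.7% had such matches of 2. With 31 families, some matches occur by chance, and how many was not tested. Unmatched reads were unevenly placed, at 5.46% of 3′ UTR reads, 9.73% of coding reads, 26.1% of the RNA class, 37.0% of lincRNA and 60.1% of tRNA reads.

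Regions with a 7mer or 8mer for miR-122 held the largest share of reads of any family. That share was 12.9%, 11.3% and 13.1% in the 3 females and 13.9% and 13.4% in the 2 males, a mean of 12.9% ± 0.976 over 5656 regions. Its distance to the next family, 5.14 percentage points, was larger than the spread between libraries, and it was higher in 5 of 5. The families of miR-15/16, known for restraining the cell cycle, and of let-7, known for maintaining differentiation, followed at 7.80% ± 0.454 and 7.75% ± 0.416. Their order could not be told, since miR-15/16 was the higher in only 1 of 5 libraries (control 2, 8.53% against 7.23%). The miR-30 family stood at 6.12% ± 0.357, below let-7 in 5 of 5 libraries. The class listed as miR-122-5p-B, which the labels and headers do not define, had 5.44% ± 0.737.

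Below these, the families lay close together. The shares were 4.68% ± 0.507 for miR-103, 4.56% ± 0.293 for miR-29, known for its collagen targets, and 4.49% ± 0.283 for miR-22, and neighbours among these 3 were in the stated order in 3 of 5 libraries. Next came miR-27 (3.84% ± 0.252), miR-26 (3.10% ± 0.205) and miR-148/152 (2.92% ± 0.0403). Of the 30 pairs of neighbouring families, 13 were in the same order in 5 of 5 libraries (exact two-sided sign-flip tests, smallest p 0.0625, smallest adjusted p 0.144 by Benjamini-Hochberg over the 30). The table also ranks the families, on a basis that the headers do not state. miR-103 is rank 24 there and rank 6 by reads, while miR-192 is rank 8 there and rank 26 by reads.

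**Figure D2:**
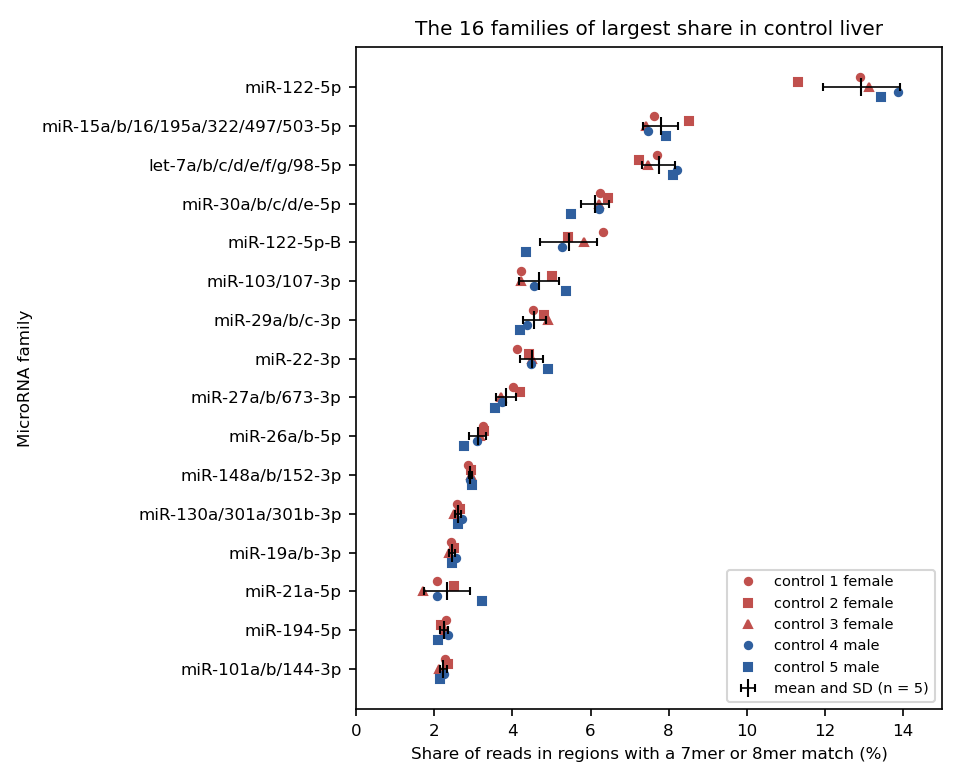
Share of each library's reads in regions with a 7mer or 8mer match (x axis, percent) for the 16 families of largest share (y axis); red symbols are the 3 females, blue the 2 males, black bars the mean with SD (n = 5). miR-122-5p lies to the right of all others in each library, at 11.3% to 13.9%, and miR-21a-5p has the highest value in control 5.

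A few very high regions carried some of these shares. The share of miR-21a was 2.32% ± 0.579, and of its reads pooled over the 5 libraries 60.8% lay in the mitochondrial methionine tRNA gene mt-Tm. For miR-2137 and miR-122-3p, 64.0% and 53.6% of the pooled reads lay in 1 region of Gm26924, a gene model over ribosomal RNA on chromosome 17. The same region held 19.7% of the pooled reads of miR-22. The largest region of miR-27 lay on the Mir30a hairpin and held 10.5% of its pooled reads, and that of let-7 lay in the mitochondrial ribosomal RNA mt-Rnr1 and held 6.86%. Counted over exons of messenger RNA alone, miR-122 had 13.02% of the reads, miR-15/16 9.38%, let-7 8.72% and miR-30 6.93%. There miR-21a fell from rank 14 to rank 26 at 0.840%, and miR-22 from rank 8 to rank 10 at 3.54%. Within 3′ UTRs miR-30 led with 11.6%, ahead of miR-122 at 10.7% and let-7 at 8.39%.

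The kind of match and the place in the transcript differed between families. Of the reads credited to miR-122, 46.9% lay in coding sequence, 23.7% in 3′ UTRs and 9.35% in introns, and 25.3% lay in regions with an 8mer. The miR-30 family was nearly the reverse, with 28.3% coding, 54.0% in 3′ UTRs and 54.2% in regions with an 8mer. For let-7 these were 48.5%, 30.95% and 44.2%. Reads of miR-15/16 were 31.3% and those of miR-103 36.0% in 5′ UTRs, against 7.32% of all reads. Near-identical copies of the major urinary protein genes (Mup) entered these shares, and their part was not counted. Of the 10 mRNA exon regions with a miR-15/16 match at 1000 CPM or more, 8 were in Mup genes, and 7 of these also matched miR-103. In regions with a 7mer or 8mer of 1 family only, miR-15/16 was rank 5 and miR-103 rank 13. Of the regions with a match of those 2 families, 1293 had both, which is 21.9% of the regions of miR-15/16 and 37.1% of those of miR-103. With only 8mers counted, let-7 had 3.43% of the reads, miR-30 3.31% and miR-122 3.25%.

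Matches for miR-122 were more frequent among highly bound regions than among weakly bound ones. In mRNA exons, 2.94% of the 44098 regions at 1 to 10 CPM had a 7mer or 8mer for miR-122. The share was 9.33% at 10 to 30 CPM, 15.3% at 30 to 100, 18.7% at 100 to 300 and 20.2% of the 193 regions at 300 to 1000, and 15.4% (6 of 39) at 1000 or more. The class miR-122-5p-B rose from 1.25% to 10.3% over the same steps up to 300 CPM, and let-7 from 4.44% to 12.3%, with lower values above that. For miR-15/16 the share was between 7.31% and 8.29% from 1 to 1000 CPM, with no trend. It was 25.6% (10 of 39 regions) at 1000 CPM or more, and 8 of those 10 regions were in genes of the major urinary proteins (Mup), which are near-identical copies of one another. These shares describe 1 set of 5 libraries and carry no test, and level and transcript abundance were not separated.

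**Figure D3:**
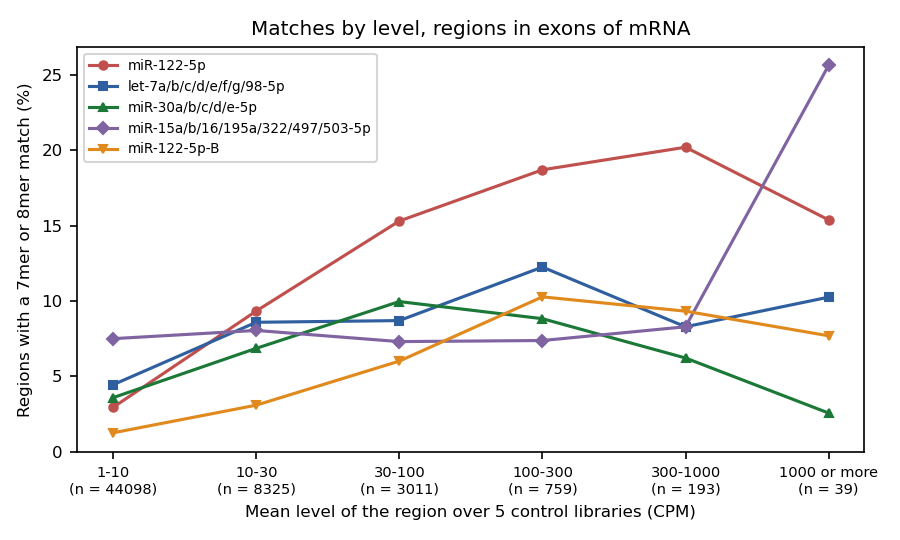
Share of regions in mRNA exons with a 7mer or 8mer match (y axis, percent) by the region's mean level over 5 control libraries (x axis, CPM classes with the number of regions), for 5 families. miR-122-5p climbs from 2.94% to 20.2% at 300 to 1000 CPM and is at 15.4% in the last class, while miR-15/16 stays between 7.31% and 8.29% until the last class.

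Matches clustered at the centre of the bound regions, and the longer the match the more so. Regions are 70 bases long in 92.6% of cases, and this count covers 68777 matches in 41489 regions of that width. A match spread evenly over a region would lie within 10 bases of the centre in 32.3% of cases. The share within 10 bases was 49.0% for 6mers, 56.0% for 7mer-A1, 63.7% for 7mer-m8 and 73.5% for 8mers, and the median 8mer lay 4 bases to the 3′ side of the centre. The share of 8mers near the centre exceeded that of 6mers in 30 of 31 families, and it rose from 6mer to 7mer-m8 to 8mer in 28.

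miR-122 was the most tightly placed of the families printed here. Within 10 bases lay 69.8% of its 6mers, 80.9% of its 7mer-m8 matches and 88.0% of its 1493 8mers. For let-7 the corresponding shares were 65.1%, 76.2% and 82.4%, and for miR-30 they were 59.0%, 74.2% and 80.8%. The 8mers of miR-378a showed little of this, with 38.0% of 108 within 10 bases, near the even spread. By class of region, the 8mers of all families lay near the centre in 70.2% of cases in 3′ UTRs, 71.6% in coding sequence, 72.6% in 5′ UTRs and 84.4% in introns. For miR-122 alone the values were 81.6%, 78.6%, 85.7% and 91.8%, again highest in introns.

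**Figure D4:**
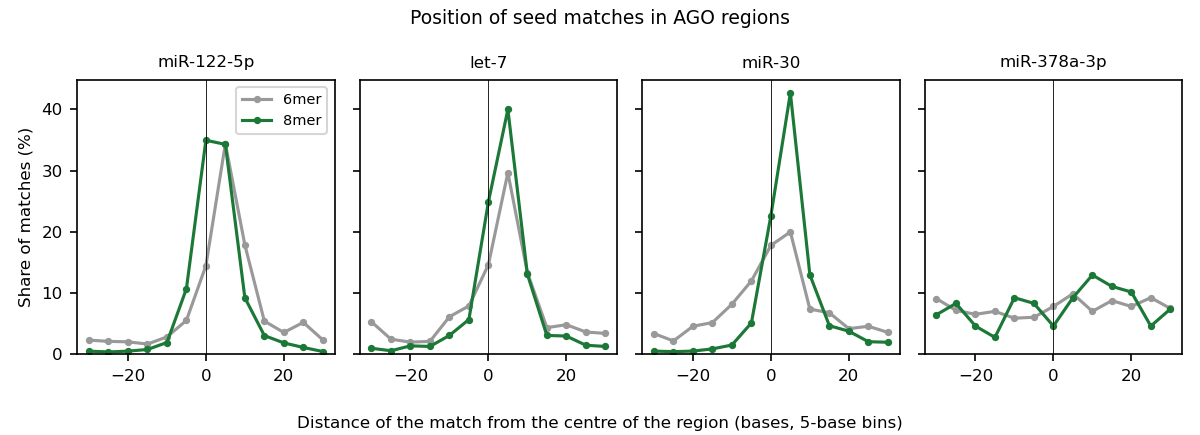
Distance of seed matches from the centre of the bound region (x axis, bases, in 5-base bins, 3′ side positive) as a share of all matches of the kind (y axis, percent) for 4 families; grey lines are 6mers, green lines 8mers. The 8mers of miR-122, let-7 and miR-30 peak within 10 bases of the centre, and those of miR-378a-3p are spread over the region.

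Conservation of the matches, taken as the deposited phyloP score averaged over the 6 bases of the match, differed between families. In 3′ UTRs, matches within 10 bases of the centre had a median phyloP of 0.993 over all families. The median was 1.62 for miR-29, 1.56 for let-7 and 1.46 for miR-30, but 0.174 for the 712 central matches of miR-122, of which 21.1% scored 1 or more. Central and distant matches of miR-122 had similar medians, at 0.174 and 0.236. In coding sequence the medians were higher and closer together, with 1.55 over all families, 1.86 for let-7 and 1.33 for miR-122.

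Reads were concentrated in few regions. The highest region held 1.46% ± 0.537 of the reads, the 10 highest 5.43% ± 1.09, the 100 highest 17.7% ± 2.15 and the 1000 highest 40.3% ± 2.34. Of the reads, 50% lay in 2122 regions and 90% in 32230. The 10 highest included none in coding sequence. The first was mt-Tm (mitochondrial genome, 3831 to 3900), at 12974, 16768, 9389, 10880 and 22778 CPM in controls 1 to 5. It was highest in control 5 and lowest in control 3, a spread of 36.9% of the mean. The region of mt-Rnr1 at 615 to 684, with a let-7 8mer, stood at 5554 ± 1134 CPM. Of the 10 places, 5 went to the ribosomal locus of chromosome 17, whose 14 regions between 39842977 and 39848154 (mm10) held 3.45% ± 0.658 of the reads.

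Regions over microRNA precursors were also among the highest. The hairpin of Mir30a (chromosome 1, 23272252 to 23272321) had 6180, 7302, 2487, 3390 and 3161 CPM. Those of Mir30e, inside an intron of Nfyc, and Mir30d had 2146 ± 913 and 1749 ± 932 CPM, and Mir27a had 830 ± 318. All 4 were highest in controls 1 and 2. Females and males overlapped for Mir30a, Mir30e and Mir27a, where control 3 was below at least 1 male, and did not for Mir30d, where control 3 stood at 1137 CPM and the males at 1038 and 1040.4. By gene, Mir30d was not called in the sex comparison described further on. The hairpin named Mir122a stood at 468 ± 143 CPM. In all, 194 regions over hairpins with a read held 2.08% ± 0.707 of the reads. Of the 196 listed regions over hairpins, 105 were filed under a class other than miRNA, such as intron.

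The highest region in coding sequence lay in Cps1, the entry enzyme of the urea cycle (chromosome 1, 67157788 to 67157857), with a 7mer-m8 for miR-122. Its levels were 2337, 3911, 2574, 2368 and 2636 CPM, highest in control 2 and close together in the other 4. Next came Sephs2, which makes selenophosphate (chromosome 7, 127272600 to 127272669), with a 7mer-m8 of let-7 and 1 of miR-15/16, at 2634 ± 430 CPM. The plasma protein gene Ahsg (chromosome 16, 22892213 to 22892282) had a let-7 8mer and 1975 ± 278 CPM. Albumin (Alb) held 3 of the 10 places, at 1956 ± 535, 1730 ± 593 and 1520 ± 346 CPM, with matches of miR-19, miR-15/16 and miR-103. Cyp8b1, the sterol 12-alpha-hydroxylase that sets the kind of bile acid, had a miR-122 8mer in its coding sequence (chromosome 9, 121915240 to 121915309) at 1228, 2196, 1068, 1584 and 1298 CPM. Complement C3, Birc6 and Atp5a1 filled the remaining places at 1602 ± 709, 1453 ± 351 and 1446 ± 204 CPM. Of the 10, those in Cps1, Cyp8b1, Birc6 and Atp5a1 had a 7mer or 8mer of miR-122.

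In 3′ UTRs none of the 10 highest regions had a 7mer or 8mer of miR-122. The 2 alpha globin genes led at 3345 ± 566 and 3290 ± 611 CPM without a match, and reads cannot be assigned between such copies with certainty. Pck1, the control enzyme of gluconeogenesis (chromosome 2, 173158897 to 173158993), had a miR-26 7mer-m8 and 2732, 3552, 2565, 1774 and 2246 CPM. Its 3 female values lay above both male values, but the gene was not called in the sex comparison described further on. Slc25a13, the aspartate-glutamate carrier (chromosome 6, 6042143 to 6042212), had 2 let-7 matches at 1084 ± 196 CPM. Errfi1, an inhibitor of EGF receptor signalling (chromosome 4, 150868735 to 150868804), had a miR-148/152 8mer at 1340, 460, 1367, 643 and 878 CPM. Atp5g3, a subunit of ATP synthase (chromosome 2, 73908493 to 73908562), had a match of miR-122-5p-B at 1417 ± 77.6 CPM, 1 of the steadiest regions. Ahsg, Lars2, Slco1b2 and Apoe had regions of 1854, 1471, 1341 and 1003 CPM without a 7mer or 8mer.

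Among regions with a match of a single family, some of the highest were as follows. For miR-30 they included Psen2 (827 ± 224 CPM, 3′ UTR) and Rgn (743 ± 340, coding). For miR-29 the first was a 3′ UTR region of Slco1b2, a hepatic uptake carrier, with an 8mer and a narrow spread (858 ± 57.8 CPM). A noncoding region of Gm26917 followed at 523 ± 69.2 CPM. For let-7, after mt-Rnr1 and Slc25a13, came the 5′ UTR of Rsc1a1 at 888 ± 123 CPM. For miR-122-5p-B the first was the 5′ UTR of BC005537 at 2067 ± 506 CPM, and for miR-27, after the Mir30a hairpin, the coding sequence of Sepp1, the selenoprotein that carries selenium in plasma, at 879 ± 190.

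Reads were next summed by gene. A read was seen in 13112 named genes, and 10.6% of the reads had no gene name. The median gene had 4 regions with a read and a level of 16.5 CPM, 21.9% had 1 region, and 1802 genes reached 100 CPM. In genes with at least 5 regions of 10 or more reads, the highest region held a median of 34.5% of the gene's reads. Counted by regions of 10 or more reads, Egfr led with 62, followed by Apob with 58, Cps1 with 57, Adk with 54 and the nuclear RNA Neat1 with 50. They differed in makeup. Egfr had 57.2% of its reads in the 3′ UTR and Apob 87.6% in coding sequence, while Adk, the adenosine kinase, had 65.4% in introns.

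Among the 20 genes of highest sum, protein-coding genes were led by albumin. Alb stood at 11446, 12848, 11138, 7857 and 6960 CPM, with both males below the 3 females, but was not called as a gene in the sex comparison. Cps1 stood at 6443 ± 923 CPM, 44.3% of it in regions with a miR-122 match. Ahsg had 5552 ± 754, Apob 4447 ± 655, Pck1 4445 ± 1322 and C3 3701 ± 1006. Of the 20, 3 were Mup genes with over 90% of their reads in the 5′ UTR, at 2690 ± 747 (Mup2), 2652 ± 728 (Mup9) and 2596 ± 724 CPM (Mup17). The 20 genes together held 11.4% of the reads.

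Gene groups differed in how much of their signal lay in regions with a miR-122 match, against 12.9% of all reads. The 28 plasma protein genes all had reads, all at 100 CPM or more, with 5.58% of the reads in such regions and 72.2% in coding sequence. The 11 urea cycle genes had 35.2%, led by Cps1 and by Arg1, which releases urea, at 1660 ± 154 CPM with 77.1% in miR-122 regions. Bile acid genes had 28.9% (17 of 17 with reads), led by Slco1b2 at 2465 ± 312 and Cyp8b1 at 2275 ± 681 CPM. Cyp8b1 had 88.0% and Slco1b2 0.382% of its reads in miR-122 regions, so the members of that list were far apart. In amino acid catabolism the share was 16.0%, with 39.6% for the tryptophan dioxygenase Tdo2 (2339 ± 306 CPM). Shares are of the list's pooled reads and can be set by 1 or 2 genes.

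Other metabolic groups had few miR-122 reads. The share was 2.25% in fatty acid oxidation. It was 4.91% in glucose metabolism, with Pck1 the highest member. It was 6.498% in fatty acid and triglyceride synthesis, where the desaturase Scd1 had 1511 ± 374 CPM, and 4.22% in sterol synthesis. Apolipoprotein and lipoprotein genes had 5.26%, and P450 drug enzymes 9.37%, with 68.3% in Cyp2f2 (691 ± 213 CPM) and 3.55% in Cyp2e1 (2243 ± 420). The transcription factors of liver identity were mostly bound in 3′ UTRs (57.6%), with 21.8% in miR-122 regions. Rxra, the shared partner of nuclear receptors, stood at 832 ± 115 CPM with 50.03% in such regions, and Hnf4a at 334 ± 57.0 with 33.9%.

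The microRNA machinery itself was bound. Of its 20 genes 16 had reads, and 58.2% of these lay in 3′ UTRs. Tnrc6a, an AGO partner that recruits the decay enzymes, had 1066 ± 103 CPM with 37.8% in miR-122 regions, and Tnrc6b had 591 ± 63.7 with 0.353%. Dicer1, the enzyme that cuts precursors, had 571 ± 28.5 CPM with 86.2% in coding sequence. Of 25 genes reported in the literature as miR-122 targets, 24 had reads, 11 reached 100 CPM, and 41.9% of their reads lay in miR-122 regions. Their highest members were Aldoa at 459 ± 67.4 CPM with no miR-122 region, Mal2 at 445 ± 81.9 with 58.3% and Hfe2, hemojuvelin, at 419 ± 73.6 with 29.6%. Of 20 reported let-7 targets 17 had reads, among them the orphan receptor Nr6a1 at 301 ± 58.2 CPM with 96.4% in its 3′ UTR.

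Libraries differed by more than counting error. The correlation of log2(CPM + 1) between 2 libraries was 0.610 to 0.816 over 51592 regions and 0.852 to 0.945 over 7892 genes, across features and not across samples. The labels give separate mice, and all 5 were counted as separate samples. Chi-square per degree of freedom was 2.19 to 5.13 between pairs, so no 2 files held the same counts. Duplicate reads were not separated in this measure. Over the 1261 regions at 100 CPM or more, the median coefficient of variation (CV, the SD over the mean) was 23.9%. It was 18.1% for genes at that level. Regions with a mean of 1 to 3 reads had a median CV of 92.3%, of which counting alone gives 80.3%, while those with 300 or more reads had 22.2% against 4.83%. In weak regions most of the spread was thus of the size of counting error, and in strong regions it was several times larger.

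The steadiest strong region lay in the coding sequence of Hipk2, a nuclear kinase (chromosome 6, 38698508 to 38698577), at 151, 135, 146, 142 and 140 CPM, a CV of 4.34%. Among the 5 steadiest were also the RNA gene Gm22513 with 4.66% and Fkbp4, a chaperone partner, with 5.30%. These regions held 603, 914 and 655 reads over the 5 libraries. At a mean of 100 to 300 reads, counting alone gives a median CV of 8.88%, so these values lie below counting error. Of the 753 regions of that depth, 2.66% had a CV below that of counting. The most variable lay in the 5′ UTR of Cxcl1, a neutrophil-attracting chemokine (chromosome 5, 90891237 to 90891306), with a 7mer-A1 and an 8mer for miR-122. Its levels were 55.0, 44.9, 37.8, 84.6 and 2035 CPM, so that control 5 alone made the mean of 451. The imprinted RNA H19 held 2 of the 5 most variable regions. That on chromosome 7 at 142576994 to 142577125 had 7.05, 130, 3.52, 78.6 and 425.5 CPM, and that at 142575778 to 142575847 had 213, 1049.5, 130, 655 and 2807. Both were highest in control 5 and lowest in control 3. The remaining 2 lay in Mup20 and in Mup-ps19, a pseudogene whose levels follow those of Mup20 closely. Both were higher in the 2 males.

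Sex was the 1 known difference between the controls, and it was compared across all features with edgeR's quasi-likelihood test (3 females, 2 males, Benjamini-Hochberg adjusted p under 0.05). Replicates are separate mice by their labels. The sample labels used here give no batch, so a batch, if there was one, could not be separated from sex. Of 7573 genes tested, 113 were called (1.49%), 65 higher in males (0.858%) and 48 higher in females (0.634%). Some called genes, such as Galnt11 and Rsrc1, hold a called LTR region, and others are Mup copies, so these genes are not all independent observations. Of 13981 regions tested, 338 were called (2.42%), 225 higher in males (1.61%) and 113 higher in females (0.808%). Without control 1 the calls fell to 74 genes and 132 regions, and without control 5 to 55 genes and 225 regions. Without control 3 there were 216 regions, and without control 4 there were 545.

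The sex markers matched the labels. Xist, the RNA that silences 1 X chromosome in females, stood at 424, 321 and 364 CPM in females and 11.96 and 63.1 in males, with all 5 of its tested regions called. Ddx3y stood at 22.6, 33.6 and 16.7 CPM in females against 143 and 80.5 in males. Ddx3x on the X chromosome is a close copy of Ddx3y, which was not separated in this gene sum. The 2 called regions of Ddx3y, both in its 3′ UTR, had no read in females. In controls 4 and 5 they stood at 41.9 and 20.1 CPM and at 29.1 and 21.5 CPM. The Y-linked genes Uty and Eif2s3y had no read in females.

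Genes higher in males included liver enzymes and pheromone carriers known for male-biased expression. Cyp4a12a, a fatty acid hydroxylase, stood at 2.82, 2.24 and 13.2 CPM in females and 153 and 166 in males (log2 ratio 4.43, SE 0.388, edgeR adjusted p = 1.11e-05, and a log2 ratio of 5.88 without control 3). Hsd3b5, a steroid dehydrogenase, stood at 1.41, 0 and 1.76 against 73.5 and 63.1 CPM (5.61, SE 0.506, edgeR adjusted p = 1.26e-05). The groups did not overlap in either. Elovl3, a fatty acid elongase, had 3 female values of 2.82, 0 and 0 CPM and male values of 41.9 and 59.1. Nudt7, a peroxisomal coenzyme A hydrolase, had 138, 91.9 and 133 CPM in females and 444 and 502 in males. Traf5 and Keg1 rose by 2.05 and 1.78 on the log2 scale. Of the 31 Mup genes tested, which encode pheromone-binding urinary proteins, 17 were higher in males and 0 in females, and 10 were called without control 5. Their copies share reads, so these are not 17 independent observations. Mup20 had 56.4, 132 and 141 CPM in females against 596 and 1534 in males, a ratio of 3.35 on the log2 scale (SE 0.400, edgeR adjusted p = 0.000241). Without control 5 that ratio was 2.39.

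Genes higher in females included transporters and cytochromes. Mfsd2a, a transporter of lysophospholipids, had 452, 361 and 431 CPM in females against 29.1 and 47.0 in males (log2 ratio -3.45, SE 0.280, edgeR adjusted p = 5.50e-06), with 3 of its regions among the 10 strongest. A1bg had 69.1, 47.1 and 57.2 CPM in females and no read in males, which makes it at least 36.9-fold higher (against 3 reads over both male libraries). The cytochromes Cyp2b13, Cyp2b9, Cyp2a4 and Cyp17a1 and the carrier Slc22a26 were also called, with log2 ratios between -2.54 and -5.01. Single libraries moved some of these. Without control 4 the ratio was -8.36 for Slc22a26 and -3.97 for Cyp2a4, and without control 5 it was -4.38 for Slc22a26 and -3.14 for Cyp2b9. Cyp4a14, an inducible fatty acid hydroxylase, had 1827, 2189 and 1442 CPM in females against 384 and 158, and its 3′ UTR held 2 of the 10 strongest female-biased regions.

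By list, 14 of the 21 tested genes (23 listed) of male-biased liver expression were higher in males and 0 in females, and 8 of the 24 tested genes (27 listed) of female-biased expression were higher in females and 0 in males, against 0.858% and 0.634% of all genes. The tested median log2 ratios were 1.78 and -1.47, against 0.0053 over all genes. The lists were chosen with earlier results of these data known, and the male-biased list holds Mup copies that share reads. These shares therefore describe the lists and are no independent support for the calls. In fatty acid oxidation 3 of 18 tested genes were higher in females, namely Ehhadh, Cyp4a10 and Cyp4a14. Single genes were called in bile acid transport (Slco1a4), P450 drug enzymes (Cyp2c37) and reported let-7 targets (Ccnd1), all higher in females, and in glucose metabolism (Eno1), higher in males. The other 17 lists had no call by edgeR among 189 tested genes. Of these genes 26 had an unadjusted p under 0.05, against 790 of all 7573 tested, and 2 were called by DESeq2. These lists include the plasma proteins, the urea cycle, the microRNA machinery, the reported miR-122 targets and the markers of the other cell types. This holds for gene sums only, as single regions of some members were called. Among them were a coding region of Cps1, higher in males (log2 ratio 2.24, edgeR adjusted p = 0.000883), and a region of Alb, higher in females (-1.59, edgeR adjusted p = 0.0350). Of the marker lists, those of cholangiocytes and neurons had no gene that could be tested and that of lymphocytes had 1, so nothing could be called in the first 2.

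The call of Eno1, the glycolytic enolase, rested on 1 region. In its coding sequence (chromosome 4, 150246678 to 150246747) the level was 4.23, 6.73 and 0.879 CPM in females and 162 and 208 in males (log2 ratio 5.86, SE 0.477, edgeR adjusted p = 2.62e-06, and a log2 ratio of 5.13 without control 3). This was the smallest p of any region. The other 2 tested regions of the gene showed nothing like it, with log2 ratios of 0.12 and -0.94 and edgeR adjusted p of 0.971 and 0.498. How reads matching several copies were assigned is not stated in the sources used. Whether copies of Eno1 elsewhere in the genome share reads with this region was not tested.

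Of the 338 called regions, 82 were LTR regions with a miR-122 match, a pattern looked at after the calls had been seen. Of the 343 LTR regions tested, these 82 were the ones called (23.9%, against 2.42% of all regions), all 82 were higher in males, and all 82 carried a 7mer or 8mer of miR-122. The LTR regions split by that match. With it, 82 of 160 tested were called, and without it 0 of 183 by edgeR (24 at an unadjusted p under 0.05, 0 by DESeq2, 6 without the filter on low counts, and up to 5 with 1 library left out). Of all 13981 regions tested, 1751 had an unadjusted p under 0.05 by edgeR. Over all 323 LTR regions with the match, the share of a library's reads was 0.549%, 0.336% and 0.571% in females. In males it was 1.18% and 1.23%, a ratio of 2.48 between the means. The 1660 other listed LTR regions held 0.934%, 0.841% and 0.915% against 1.07% and 1.01%, a ratio of 1.16. Outside LTR elements, 20 of 1839 tested regions with a miR-122 match were called (1.09%), 15 of them higher in males, with 5 called without control 1, 9 without control 3 and 54 without control 4. Without control 1, the count of 82 fell to 42, and without control 3 to 52. Leaving out control 2 gave 72, and none of these LTR regions was called higher in females in any of these fits. With all 5 libraries, 146 of the 160 tested had a log2 ratio above 0.

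The 82 regions shared some other traits. Several were neighbours in the numbering of regions on 1 strand of a chromosome, so 1 element may hold more than 1 of them. The 82 regions lay on 17 chromosomes, 73 of them outside any named gene. Their match was an 8mer in 49 and a 7mer-m8 in 33, lay within 10 bases of the centre in 81 of 82, and none had a match of another family. Both traits were common for miR-122 in general. Over all classes, 88.0% of its 8mers and 80.9% of its 7mer-m8 matches lay that near the centre. Of its reads, 74.8% lay in regions without a 7mer or 8mer of another family. The same shares for uncalled LTR regions with the match are not given here. The log2 ratios of the 82 ran from 1.28 to 2.25, with a median of 1.81. The region of smallest p, on the plus strand of chromosome 10 (5722893 to 5722962), had 29.6, 17.9 and 35.2 CPM in females and 143 and 124 in males. One on the minus strand of chromosome 5 (109902761 to 109902830) had 45.1, 26.9 and 45.7 against 171 and 166. Repeats of 1 family are near copies, and how reads matching several copies were assigned is not stated in the sources used, so the 82 cannot be taken as independent observations. Control 2, the shallowest library, was lowest of the 5 in the share of these regions.

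**Figure D5:**
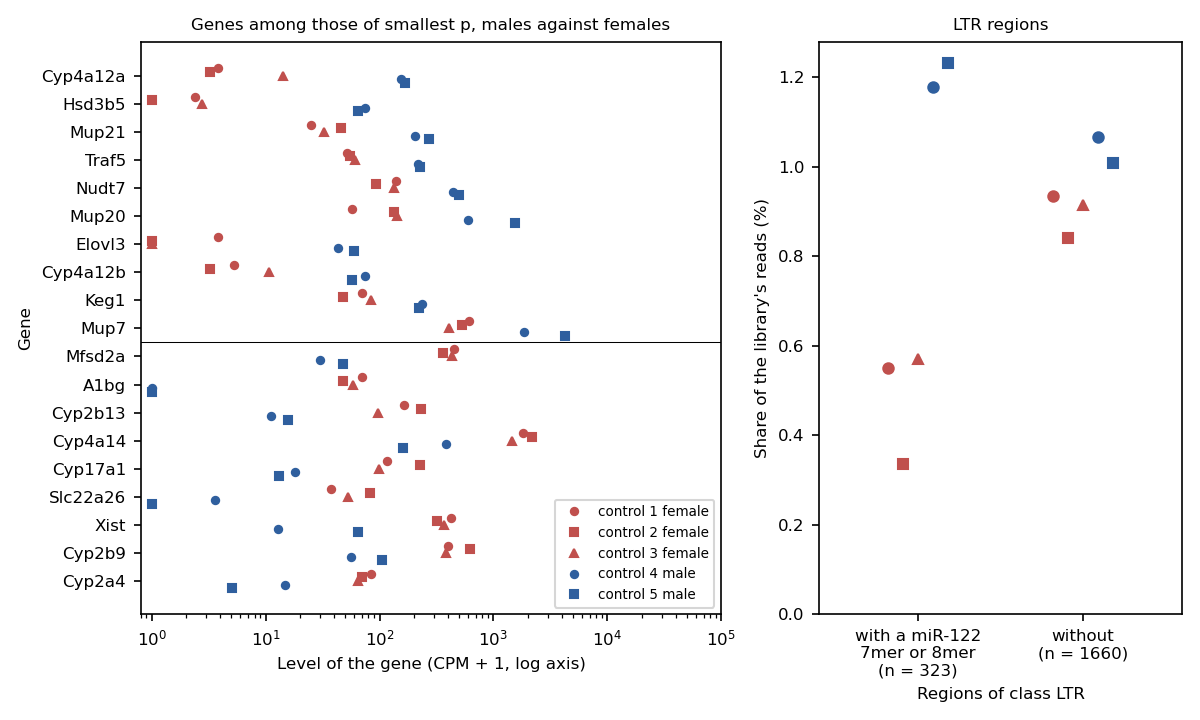
Left, level (x axis, CPM + 1, log axis) of genes among those of smallest p, higher in males (above the line) and in females (below it), 1 symbol a library; red females, blue males. Right, share of each library's reads (y axis, percent) in LTR regions with and without a 7mer or 8mer of miR-122. The genes were picked by this comparison, so the distance between male and female symbols is a description, and the gap in LTR regions is 2.48-fold with the match and 1.16-fold without it.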

How the data were processed

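AGO CLIP-seq was measured in 5 control livers. The deposited matrix holds read counts per region and library with, per the file headers, the region's class, gene and seed matches and a phyloP conservation score per match, which is also the authors' own value. Bowtie2 and mm10 are named, with no version or role, per the submitters' processing notes. How regions were called, whether replicates were pooled for it, and how duplicate or multiply matching reads were treated are not stated in the sources used. PCR reads are not independent molecules, so limits cover counting error only.

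Rows were reduced to 1 per region, counts divided by the library's sum (CPM), and gene sums formed by gene name (18 month-like names and 25 names of several genes were not singled out). Shares are means over libraries with SD, and a region with matches of several families counts for each. Males were compared with females by edgeR 4.0.16 (TMM, filterByExpr, glmQLFit and glmQLFTest), with DESeq2 1.42.0 as an alternative. The test was also run on simulated counts, with results not given here. These were drawn independently for each feature, so they say nothing about copies that share reads. Regions and genes were named by rules on level (10 highest regions of any class, in 3′ UTRs and in coding sequence, 20 highest genes, 3 highest of each list or family), region number, CV and p. Members and lists were chosen with earlier results of these data known. Some genes these rules select are not reported here. MicroRNA sequences came from RefSeq.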

Additional observations from a re-analysis of the deposited data

Results flagged for a closer look

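Of 218 values reported for the 5 controls, 13 had 1 library far from the others (gap over range above 0.71). Chance alone gives about 1 in 20 such groups. The widest gap was that of the Cxcl1 region, at 2035 CPM in control 5 against 37.8 to 84.6. Control 5 also stood apart in the share of miR-30, at 5.51% against 6.20% to 6.44%, in Apob at 5562 CPM against 3821 to 4295, in Serpina1b at 3619 CPM against 2257 to 2626, in the beta globin gene Hbb-bs at 1755 CPM against 1075 to 1167, and in Sox9 at 14.8 CPM against 4.23 to 6.73. Control 2, the shallowest library, stood apart in the Cps1 region, at 3911 CPM against 2337 to 2636, and in the Psen2 region, at 1220 CPM against 675 to 773. It also did so in the shares of deep intergenic regions (2.13% against 1.83% to 1.90%), of pseudogenes (2.11% against 1.85% to 1.91%) and of miR-193 (1.20% against 1.32% to 1.37%). Control 4 stood apart in the share of miR-23, at 2.06% against 1.99% to 2.01%, and in the Kupffer cell gene Cd5l, at 98.3 CPM against 69.5 to 77.5.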

How the results depend on the processing

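No paired analysis was possible because the females and the males share no replicate number. Coding reads exceeded 3′ UTR reads under each setting tried. With only regions of 10 or more reads in every control, the difference was 12.7 percentage points and the 3′ UTR share 24.6%, and the 100 most bound regions held 27.9%. Without the 10 most bound regions the coding share was 40.5% and the next 100 held 13.8%. Over mRNA exons alone, an alternative added after seeing the data, the 100 most bound regions held 14.9% and unmatched regions 7.68%. Counting regions of 10 or more reads, the median gene had 3 regions. Leaving out 1 library gave 132 to 545 called regions and 55 to 134 called genes in the sex comparison, and dropping the filter on low counts gave 225 genes. In that fit 19 male-biased and 14 female-biased list genes were called. All 20 genes and 20 regions of smallest p, 10 in each direction, kept their direction and call in each alternative. With 1 library left out, the fold of 10 of these genes and 12 of these regions moved by over 1.5 times in at least 1 fit. Of 140 values of the 10 family shares under the alternatives, 77 moved by less than the spread between libraries and 63 by more, each under another choice of matches or of regions. The cause was not tested. Depth limits the weak regions, and 2 males limit the sex comparison.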
